A study of Arabidopsis thaliana with 8 samples.

Results

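The genes described here are 31 Arabidopsis loci of the auxin response: 28 Aux/IAA genes, numbered between IAA1 and IAA34, and the GH3 genes GH3.3, GH3.5 and GH3.6. The list was set by family and locus, not by how each gene responded, but it was chosen with earlier results of these data known. Every probe of the array whose annotation leads to a listed locus was taken. That gave 39 of the 43603 probes, lying on 29 of the 31 loci. IAA15 was not on the list, and no probe was matched to IAA9 or IAA32. Of the 29 loci, 25 passed a filter on dim spots and were tested among 21469 genes or unnamed transcripts, 22 of them Aux/IAA and 3 of them GH3 genes.

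Auxin is a growth hormone that acts largely through transcription. Aux/IAA proteins are repressors that bind auxin response factors (ARFs) at auxin-responsive promoters, and auxin makes the TIR1/AFB receptors mark them for destruction, which frees the ARFs. Many Aux/IAA genes and a group of GH3 genes are themselves switched on by auxin, the GH3 enzymes then joining auxin to amino acids, so the transcripts of both families are widely read as a record of auxin response in seedlings. LHY, the gene induced in this study, is a MYB-like factor of the plant circadian clock.

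The tested line, Alc::LHY, carries a copy of LHY behind an ethanol switch in the Col-0 background, and its reference was wild-type Col-0. Both were seedlings grown on agar for 2 weeks in a 12 h photoperiod and then moved to constant light, and the labels give 1 ethanol treatment, begun 17 h after that move, for both dyes of an array. RNA was taken at 0, 2 and 4 h and at a last time, which replicate S has at 9 h and replicate I at 8 h, handled as a single 8-9 h group. Each time had 2 arrays, and each array held Alc::LHY and wild type together, with Alc::LHY in Cy5 in replicate S and in Cy3 in replicate I. No group held the switch without the LHY copy, so effects of the switch, of ethanol acting through it and of LHY cannot be told apart. All samples after 0 h had ethanol and were later in constant light. Ethanol and time therefore cannot be told apart in a change within a line. Neither the promoter that drives the switch nor the number of seedlings pooled was given in the sources used here. Nothing in the labels says that replicates S and I were separate cultures, and the p-values then cover no more than the spread between these samples, possibly a technical one. Since the material was whole seedlings, fewer cells of a type and less RNA per cell cannot be told apart in any value below.

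The induced gene itself was read by a dim probe. LHY stood at a line difference (log2 of Alc::LHY over wild type) of 0.02 at 0 h, 0.57 at 2 h, 0.38 at 4 h and 0.24 at 8-9 h, and passed the test at 2 h (adjusted p = 0.0301). At that time wild type was not well above background, so the size is a bound on the mean of at least 1.49-fold. It does not hold for each array, which gave 0.97 in replicate S and 0.17 in replicate I. Against its own 0 h level LHY stood 0.97 higher in Alc::LHY and 0.75 higher in wild type by 8-9 h, both called. Across genes the line differences of the 2 replicates correlated at 0.65, 0.81 and 0.87 at 2, 4 and 8-9 h, and at -0.39 at 0 h, where genes are not independent replicates. The spread of the ratios at 0 h was larger in replicate I (SD 0.32) than in replicate S (SD 0.21). Between 50.9% and 63.4% of an array's spots were well above background in the Alc::LHY dye and 55.2% to 62.5% in the wild-type dye, and the number of arrays limits the precision.

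Detection differed widely among the 39 probes. Of the tested loci, 18 were well above background in both lines on all 8 arrays, so that their ratios compare 2 measured signals throughout. The dim tested loci were IAA3/SHY2, IAA5, IAA6, IAA14/SLR, IAA20, IAA30 and, on 1 Alc::LHY array, GH3.5. IAA30 was above background on 0 Alc::LHY arrays and on 4 wild-type arrays. In 5 loci at least 1 group of arrays had no signal well above background. There the size of a called difference is given as a bound, beside the ratios of its arrays, while counts and medians over the members use the fitted values. IAA29, IAA31, IAA33 and IAA34 had a probe but did not pass the filter: IAA33 was above background on 1 array in Alc::LHY, and IAA29, IAA31 and IAA34 were on 0 arrays in both lines. Of the 39 probes, 33 passed.

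**Figure D1:**
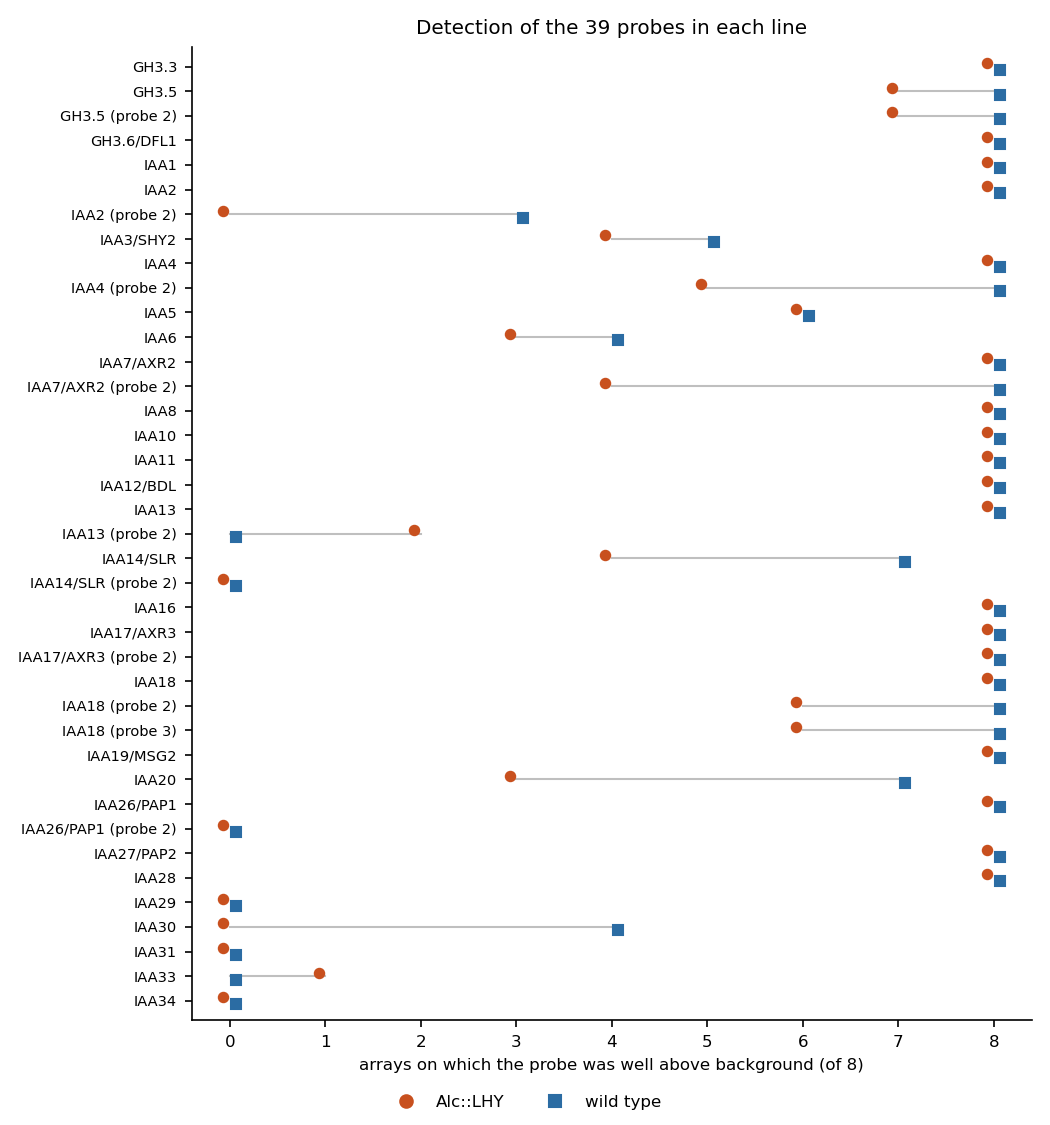
Number of arrays, of 8, on which each of the 39 probes was well above background, in Alc::LHY (circles) and in wild type (squares); a gene's further probes follow its brightest one. Most points lie at 8, while the probes of IAA29, IAA31 and IAA34 lie at 0 in both lines and that of IAA30 at 0 in Alc::LHY and at 4 in wild type.

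Before ethanol the members did not differ between the lines at the threshold used (Benjamini-Hochberg adjusted p under 0.05 over all genes). At 0 h 0 of 25 were called in limma, and 0.014% of all genes were called. At an unadjusted p under 0.05 there were 2 members, against 2.33% of all genes. The line differences lay between -0.15 for IAA18 and 0.34 for IAA10, with a median of 0.032 against 0.011 over all genes. After ethanol the members moved mainly downward. At 2 h 9 members were called, 1 higher and 8 lower in Alc::LHY, against 14.2% of all genes (6.36% higher, 7.82% lower). At 4 h 21 were called, 3 higher and 18 lower, against 36.7% of all genes (17.3% higher, 19.4% lower). At 8-9 h 19 were called, 1 higher and 18 lower, against 36.7% of all genes (16.8% higher, 20% lower). The median line difference of the 25 was -0.26, -0.53 and -0.56 at 2, 4 and 8-9 h, where all genes had medians of 0.0037, -0.0066 and -0.0078. On both arrays of the time alike, 18 of 25 members lay below 0 at 2 h, 21 at 4 h and 21 at 8-9 h. The same count over all genes is not given. By the fitted difference, 20, 22 and 22 of 25 members lay below 0 at these times, against 10603, 10876 and 10919 of 21469 genes.

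These counts, like those over all genes, depended on single arrays and on the normalization. Without replicate S or without replicate I of 2 h, 2 members were called at 2 h, against 2.35% and 2.81% of all genes. At 4 h the count was 10 without replicate S of that time (15.3% of all genes) and 13 without replicate I (18.2%). At 8-9 h it was 9 without either array of that time, against 16.5% of all genes without replicate S and 9.03% without replicate I. With the arrays centred on their medians in place of loess, 0 members were called at 2 h, 5 at 4 h (1 higher, 4 lower) and 2 at 8-9 h (1 higher, 1 lower). That centring called 0%, 6.73% and 1.33% of all genes at these times. Over all genes, the share of calls that were higher was 23.7% with that centring against 47.1% with loess at 4 h, and 76.1% against 45.7% at 8-9 h. Median centring also shifted the median of all genes to -0.12 at 2 h, -0.098 at 4 h and 0.11 at 8-9 h, and the members' medians were then -0.54, -0.75 and -0.49. No called member changed sign under any of the 17 alternatives that gave it a value. Several of these could not move the estimate: leaving out an array of another time, other filters, no replicate block, and each probe tested alone. The authors' matrix also repeats the scanner's ratio. The absence of sign changes thus rests on the remaining alternatives.

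**Figure D2:**
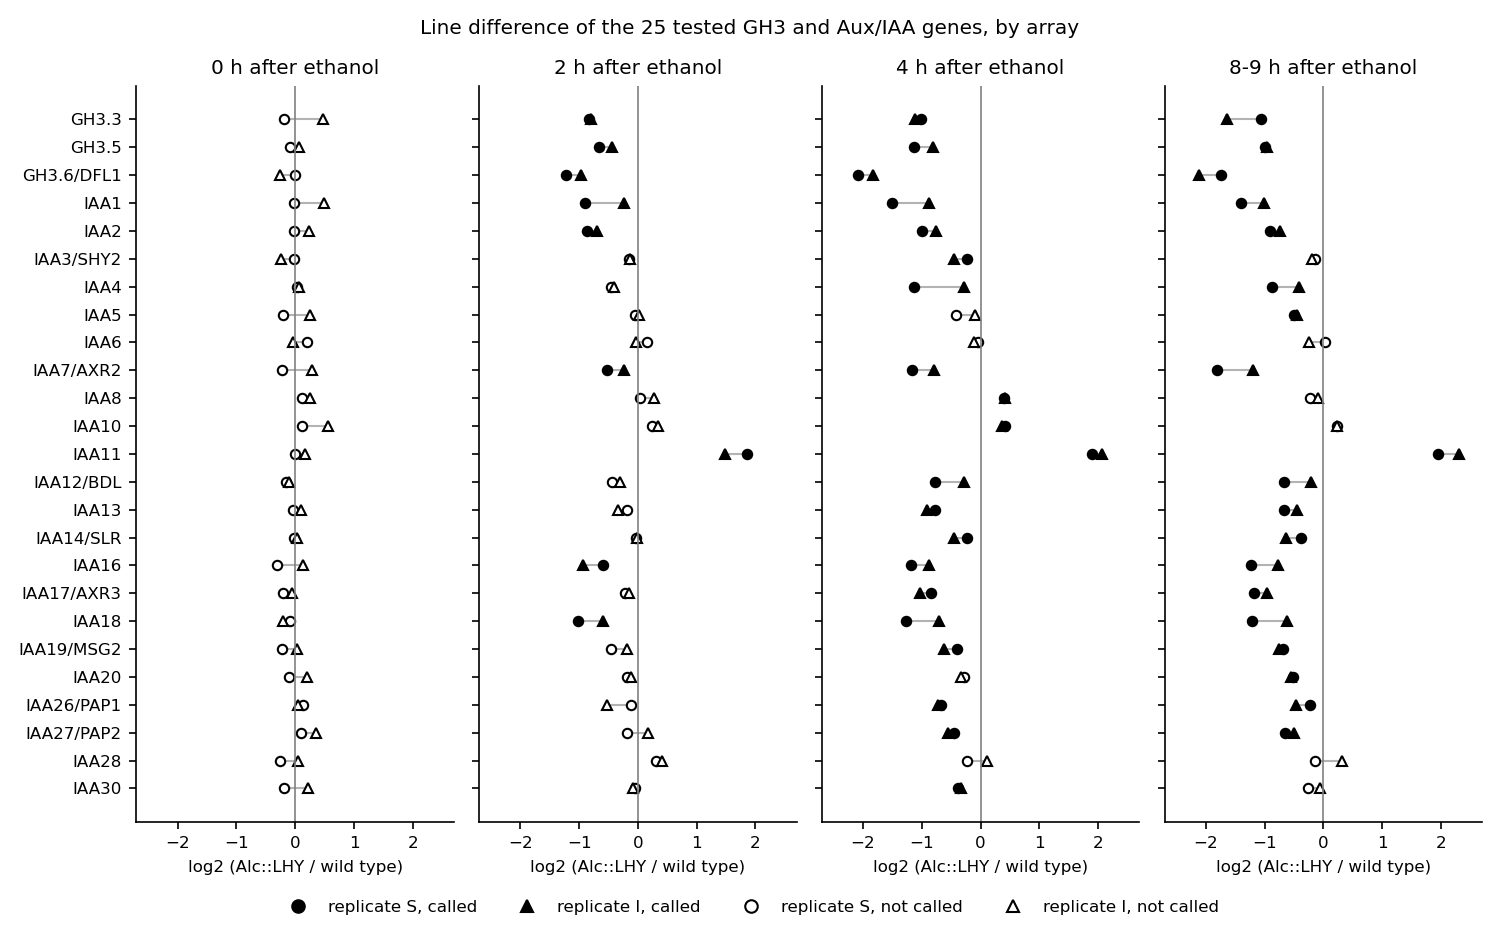
Line difference, log2 of Alc::LHY over wild type, of the 25 tested members on each array at 0, 2, 4 and 8-9 h after ethanol; circles are replicate S, triangles replicate I, a grey line joins them, and filled symbols mark members called at that time. At 0 h the points lie around 0, and from 2 h GH3.6/DFL1 lies leftmost or next to it while IAA11 lies alone above 1.

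In Alc::LHY all 3 GH3 genes were lower at 2, 4 and 8-9 h. Their enzymes conjugate auxin to amino acids and in Arabidopsis act together in the formation of adventitious roots. GH3.6/DFL1 (AT5G54510), whose overexpression shortens seedlings in the light, had channel levels (normalised log2 signal of 1 dye) at 4 h of 8.17 in replicate S and 8.84 in replicate I in Alc::LHY, against 10.25 and 10.67 in wild type. Both Alc::LHY values lay far below both wild-type values. Its line difference was -1.10 ± 0.14 at 2 h (adjusted p = 0.00493), -1.96 ± 0.14 at 4 h (adjusted p = 0.000376), then -1.92 ± 0.14 at 8-9 h (adjusted p = 0.000399), where ± is the standard error of the fit and each time rests on 2 arrays. At 4 h that is 3.88-fold lower. Single arrays gave -1.23 and -0.97 at 2 h, -2.08 and -1.83 at 4 h and -1.73 and -2.11 at 8-9 h, replicate S before replicate I.

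GH3.3 (AT2G23170) had levels at 8-9 h of 7.82 and 7.79 in Alc::LHY, against 8.88 and 9.42 in wild type, again without overlap. Its difference grew in size over the times, at -0.81 ± 0.19 (adjusted p = 0.0373), -1.07 ± 0.19 (adjusted p = 0.00672) and -1.34 ± 0.19 (adjusted p = 0.00279), though the change between 2 h and 8-9 h was not tested. Single arrays gave -0.83 and -0.79 at 2 h, -1.01 and -1.12 at 4 h, and -1.06 and -1.63 at 8-9 h. GH3.5 (AT4G27260), an enzyme also studied for its part in stress responses, had levels at 4 h of 6.74 and 7.25 in Alc::LHY, against 7.87 and 8.06 in wild type. It stood at -0.54 ± 0.10 at 2 h (adjusted p = 0.0143), -0.97 ± 0.10 at 4 h (adjusted p = 0.000908), then -0.98 ± 0.10 at 8-9 h (adjusted p = 0.00084). Its arrays lay close together, at -0.65 and -0.43, -1.14 and -0.80, and -0.998 and -0.97 at the 3 times. A second probe of GH3.5 gave -0.28, -0.76 and -0.70. It was called at 4 and 8-9 h but not at 2 h (limma over all probes, adjusted p = 0.283).

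IAA11 (AT4G28640) was higher in Alc::LHY at all 3 times after ethanol, the 1 member called higher at 2 h and at 8-9 h. It belongs to the branch of Aux/IAA genes that also holds IAA10 (AT1G04100), IAA12/BDL (AT1G04550) and IAA13 (AT2G33310). In Alc::LHY its level at 4 h was 9.68 and 9.83, against 7.79 and 7.76 in wild type, and at 0 h it had been 7.89 and 7.96 in Alc::LHY, against 7.90 and 7.79 in wild type. The lines thus overlapped before ethanol and were apart on every array after it. The line difference was 1.67 ± 0.14 at 2 h (adjusted p = 0.00114), 1.98 ± 0.14 at 4 h (3.94-fold higher, adjusted p = 0.000354), then 2.13 ± 0.14 at 8-9 h (4.39-fold, adjusted p = 0.000283). Single arrays gave 1.86 and 1.48, 1.89 and 2.07, and 1.96 and 2.31. At 4 and 8-9 h IAA11 passed under all 17 alternatives, and at 2 h under 16 of them.

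A further 5 Aux/IAA genes were already lower in Alc::LHY at 2 h and remained called at 4 and 8-9 h: IAA1 (AT4G14560), IAA2 (AT3G23030), IAA7/AXR2 (AT3G23050), IAA16 (AT3G04730) and IAA18 (AT1G51950). These calls are of the brightest probe, and the further probes of IAA2, IAA7/AXR2 and IAA18 were not called at 2 h. That of IAA2 was called at no time, and that of IAA7/AXR2 at 8-9 h only. IAA1 had levels at 4 h of 8.03 and 8.18 in Alc::LHY, against 9.54 and 9.06 in wild type. Its difference was -0.57 ± 0.10, -1.20 ± 0.10 and -1.21 ± 0.10 at the 3 times after ethanol (adjusted p = 0.0121, 0.000494 and 0.000497), with -0.90 and -0.24, -1.51 and -0.88, and -1.39 and -1.02 on single arrays. Replicate S was the lower of the pair each time. IAA2, an auxin-inducible gene, had levels at 4 h of 12.13 and 11.90 in Alc::LHY, against 13.12 and 12.65 in wild type. It lay between -0.79 and -0.88 at the 3 times (adjusted p = 0.00315, 0.000941 and 0.00111), and its arrays gave -0.87 and -0.70, -0.996 and -0.75, and -0.90 and -0.74.

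IAA7/AXR2 is known from stabilised mutants that grow as dwarfs with disturbed gravitropism. At 8-9 h its levels were 9.41 and 9.90 in Alc::LHY, against 11.22 and 11.09 in wild type. The difference was small at 2 h (-0.38 ± 0.10, adjusted p = 0.0493), -0.98 ± 0.10 at 4 h (adjusted p = 0.000951), then -1.503 ± 0.10 at 8-9 h (adjusted p = 0.000289), which is 2.83-fold lower. The call at 2 h was kept under 3 of the 17 alternatives. On single arrays the values were -0.53 and -0.24, -1.17 and -0.79, and -1.81 and -1.20.

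IAA16, whose stabilised form lowers the response of plants to auxin and abscisic acid, had levels at 4 h of 12.12 and 12.20 in Alc::LHY, against 13.31 and 13.09 in wild type. Its difference was -0.76 ± 0.16, -1.04 ± 0.16 and -1.004 ± 0.16 (adjusted p = 0.0231, 0.00339 and 0.00373), with -0.59 and -0.93, -1.19 and -0.89, and -1.24 and -0.77 on single arrays. IAA18, studied in lateral root formation, had levels at 4 h of 7.13 and 7.48 in Alc::LHY, against 8.41 and 8.18 in wild type. It stood at -0.80 ± 0.14, -0.99 ± 0.14 and -0.92 ± 0.14 (adjusted p = 0.0147, 0.00302 and 0.0039). Its arrays were further apart, at -1.02 and -0.59, -1.27 and -0.71, and -1.22 and -0.61, all on the same side of 0.

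**Figure D3:**
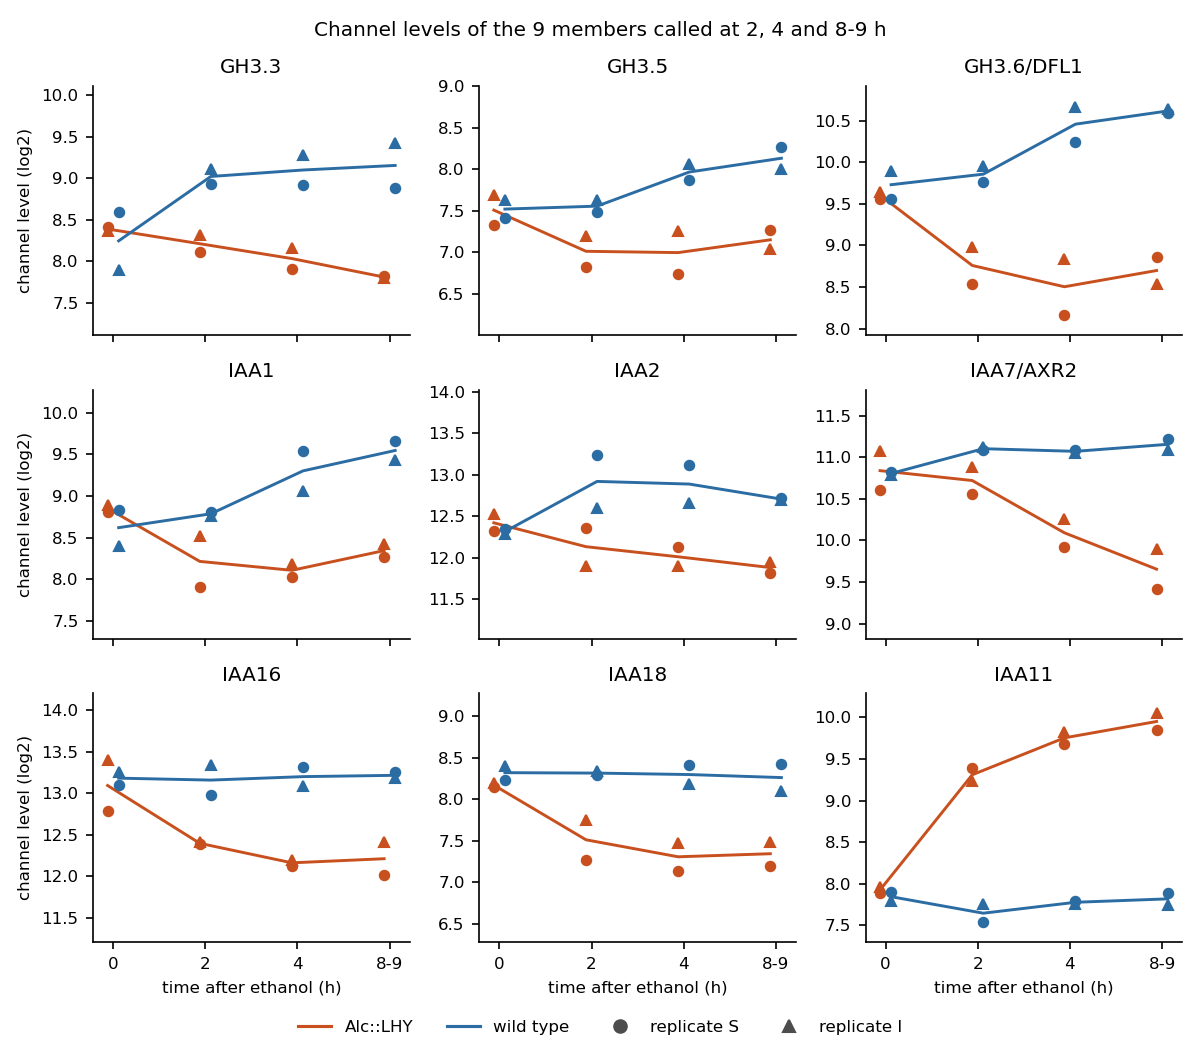
Normalised channel level, log2 in arbitrary units, of the 9 members called at 2, 4 and 8-9 h in Alc::LHY (orange) and wild type (blue); points are single arrays, lines join the means, and each panel spans 3 log2 units. At 0 h the means of the lines differ most for IAA1, by 0.23, after which GH3.6/DFL1 fell to a mean of 8.50 at 4 h in Alc::LHY, against 10.46 in wild type, and IAA11 parted in the opposite direction.

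A further group was lower at 4 and 8-9 h without having been called at 2 h. IAA17/AXR3 (AT1G04250), a repressor whose stabilised form blocks root hair growth and strengthens apical dominance, had levels at 8-9 h of 10.37 and 10.63 in Alc::LHY, against 11.56 and 11.58 in wild type. Its difference was -0.18 at 2 h (adjusted p = 0.32), -0.94 ± 0.11 at 4 h (adjusted p = 0.00135), then -1.07 ± 0.11 at 8-9 h (adjusted p = 0.000887). The arrays gave -0.84 and -1.04 at 4 h and -1.18 and -0.95 at 8-9 h. A second probe of this gene, above background throughout, gave -1.07 at both times.

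IAA13, a close relative of IAA12/BDL, stood at -0.84 ± 0.11 at 4 h (arrays -0.78 and -0.91, adjusted p = 0.00193) and -0.56 ± 0.11 at 8-9 h (arrays -0.68 and -0.45, adjusted p = 0.00805). Its 2 probes disagreed in sign. The dim probe was called higher at 4 h (arrays 0.45 and 0.38, adjusted p = 0.0221 over all probes). It was above background on 2 Alc::LHY arrays and 0 wild-type arrays over all times, so no size is given for it. IAA12/BDL, which restrains the factor ARF5 in the embryo, gave -0.53 ± 0.11 at 4 h (arrays -0.78 and -0.29, adjusted p = 0.0131) and -0.44 ± 0.11 at 8-9 h (arrays -0.66 and -0.21, adjusted p = 0.0259).

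IAA4 (AT5G43700) gave -0.71 ± 0.16 at 4 h, where its arrays were well apart at -1.14 and -0.28 (adjusted p = 0.0153), and -0.65 ± 0.16 at 8-9 h, with -0.87 and -0.42 (adjusted p = 0.0205). IAA26/PAP1 (AT3G16500) and IAA27/PAP2 (AT4G29080) encode proteins first named for binding phytochrome. IAA26/PAP1 stood at -0.70 ± 0.10 at 4 h (arrays -0.67 and -0.73, adjusted p = 0.00313) and -0.34 ± 0.10 at 8-9 h (arrays -0.23 and -0.46, adjusted p = 0.039), and the call at 8-9 h was kept under 7 of the 17 alternatives. IAA27/PAP2 stood at -0.51 ± 0.11 at 4 h (arrays -0.46 and -0.55, adjusted p = 0.0134) and -0.57 ± 0.11 at 8-9 h (arrays -0.65 and -0.50, adjusted p = 0.00824). IAA19/MSG2 (AT3G15540), a repressor of the factor ARF7 in hypocotyl bending, gave -0.51 ± 0.12 at 4 h (arrays -0.40 and -0.61, adjusted p = 0.0184) and -0.72 ± 0.12 at 8-9 h (arrays -0.68 and -0.76, adjusted p = 0.00488).

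Among the dim genes the differences were smaller and partly bounds. IAA14/SLR (AT4G14550), required to be degraded for lateral root initiation, averaged a level of 6.38 in Alc::LHY at 4 h, against 6.72 in wild type (arrays -0.23 and -0.45, adjusted p = 0.04). Alc::LHY was not well above background there. The bound on the mean, at least 1.27-fold lower, equals the fitted difference, and replicate S alone gave less. At 8-9 h IAA14/SLR was measured on 1 of 2 Alc::LHY arrays and gave -0.50 ± 0.10 (arrays -0.37 and -0.63, adjusted p = 0.0106). IAA30 (AT3G62100), which like IAA20 (AT2G46990) lacks the part of the protein that auxin receptors recognise, averaged a level of 6.32 in Alc::LHY at 4 h, against 6.68 in wild type and was lower by at least 1.25-fold (arrays -0.39 and -0.33, adjusted p = 0.0408). IAA3/SHY2 (AT1G04240), a repressor of root meristem growth, gave -0.34 ± 0.10 at 4 h, measured on 1 of 2 Alc::LHY arrays (arrays -0.23 and -0.45, adjusted p = 0.0342). These 3 calls at 4 h were kept under 8, 7 and 8 alternatives for IAA14/SLR, IAA30 and IAA3/SHY2, of 17, 16 and 17 that gave a value. IAA5 (AT1G15580) and IAA20 were called at 8-9 h and not at 4 h. IAA5 gave -0.47 ± 0.11 (arrays -0.49 and -0.45, adjusted p = 0.0176) and IAA20, measured on 1 of 2 Alc::LHY arrays, -0.53 ± 0.10 (arrays -0.51 and -0.54, adjusted p = 0.00856).

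Besides IAA11, the genes higher in Alc::LHY at 4 h were IAA8 (AT2G22670) and IAA10, and both by little. IAA8 stood at 0.41 ± 0.09 (arrays 0.39 and 0.42, adjusted p = 0.015), with levels of 14.30 and 14.32 in Alc::LHY, against 13.91 and 13.89 in wild type. At 8-9 h it stood at -0.16 (adjusted p = 0.205). Against its own 0 h level IAA8 lay lower in both lines at 4 h, neither called in limma's separate-channel test. It stood at -0.30 in Alc::LHY (adjusted p = 0.0812) and -0.53 in wild type (adjusted p = 0.0799). IAA10 stood at 0.38 ± 0.11 (arrays 0.41 and 0.36, adjusted p = 0.0379), but its difference at 0 h was already 0.34, on arrays at 0.12 and 0.55. The calls of IAA8 and IAA10 were kept under 12 and 10 of the 17 alternatives. IAA6 (AT1G52830) and IAA28 (AT5G25890) were called at no time. The difference of IAA6 lay between -0.10 and 0.08 at 0, 2 and 8-9 h, and at 4 h Alc::LHY was not well above background. The difference of IAA28, known from a mutant with few lateral roots, lay between -0.11 and 0.35.

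Taking the state before ethanol off the line difference left fewer calls. The difference at 2 h differed from that at 0 h for 3 members (1 up, 2 down, against 4.12% of all genes, 2.04% up and 2.08% down), at 4 h for 13 (1 up, 12 down, against 17.3%, 6.81% up and 10.5% down) and at 8-9 h for 14 (1 up, 13 down, against 19.1%, 7.28% up and 11.9% down). IAA11 was the gene with an upward shift in each, by 1.58 ± 0.20, 1.90 ± 0.20 and 2.05 ± 0.20 (adjusted p = 0.0119, 0.00366 and 0.00297). The strongest downward shift at 4 h was that of GH3.6/DFL1 (-1.83 ± 0.20, adjusted p = 0.00432), followed by IAA1 (-1.43 ± 0.14, adjusted p = 0.00297). IAA8 and IAA10, higher at 4 h, did not shift from 0 h at the threshold. The count at 2 h was 0 without either 0 h array or replicate S of 2 h, and 1 without replicate I of 2 h. At 4 h it was 7 without replicate I of 0 h and 8 without replicate I of 4 h. At 8-9 h it was 8 without replicate S of 0 h, 7 without replicate I of 0 h or replicate S of 8-9 h, and 4 without replicate I of 8-9 h. With median centring it was 0 at each of the times. No share of all genes is given for these alternatives, so whether the members lost more calls than other genes is not shown.

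Fitted dye by dye, the channels show how each line moved against its own 0 h level. Ethanol and the hours in constant light are not separated in these changes. In Alc::LHY 5 members changed by 2 h (14.8% of all genes, 7.29% up and 7.52% down), IAA11 upward and GH3.6/DFL1, IAA16, IAA18 and IAA1 downward. By 4 h 9 had changed, 1 up and 8 down (28% of all genes, 13.6% up and 14.4% down), and by 8-9 h 11, 1 up and 10 down (34.1%, 17.4% up and 16.7% down). The falls at 4 h were those of GH3.6/DFL1 (-1.10 ± 0.20, adjusted p = 0.00351), IAA16 (-0.93 ± 0.18, adjusted p = 0.00493), IAA18 (-0.86 ± 0.16, adjusted p = 0.00348), IAA7/AXR2 (-0.75 ± 0.10, adjusted p = 0.000925), IAA1 (-0.75 ± 0.14, adjusted p = 0.00443), IAA4 (-0.67 ± 0.18, adjusted p = 0.0211), GH3.5 (-0.51 ± 0.17, adjusted p = 0.0448) and IAA26/PAP1 (-0.41 ± 0.11, adjusted p = 0.0185). IAA7/AXR2 reached -1.19 ± 0.10 by 8-9 h (adjusted p = 6.73e-05). IAA8 fell in Alc::LHY by 8-9 h (-0.65 ± 0.12, adjusted p = 0.00253), a time at which the lines did not differ in it at the threshold.

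In wild type 0 members were called by 2 h and 0 by 4 h in limma's separate-channel test, against 0.056% and 0.808% of all genes. At an unadjusted p under 0.05 there were 6 of 25 members by 2 h, against 11.5% of all genes, and 13 of 25 by 4 h, against 14.7%. By 8-9 h 4 were called, all higher than at 0 h, against 3.8% of all genes (2.34% higher): IAA1 (0.93 ± 0.14, adjusted p = 0.00834), GH3.6/DFL1 (0.89 ± 0.20, adjusted p = 0.0415), IAA19/MSG2 (0.79 ± 0.14, adjusted p = 0.0141) and IAA17/AXR3 (0.68 ± 0.14, adjusted p = 0.034). At 4 h 21 of the 25 members lay above their 0 h level in wild type, with a median change of 0.29, while 22 of 25 lay below it in Alc::LHY, with a median of -0.32. Over all genes the medians were 0.0073 in wild type and -0.022 in Alc::LHY.

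Sorted by the calls within each line, some members lower in Alc::LHY could be set apart. Whether the courses of these genes differ was not tested, and the calls depended on single arrays, as given below. IAA16 and IAA18 fell in Alc::LHY while wild type changed by 0.02 and -0.02 at 4 h. IAA17/AXR3 and IAA19/MSG2 rose in wild type by 8-9 h, while in Alc::LHY they stood at -0.26 (adjusted p = 0.202) and 0.17 (adjusted p = 0.362) from their 0 h level. GH3.6/DFL1 and IAA1 did both, falling in Alc::LHY and rising in wild type. GH3.3, although lower in Alc::LHY at all 3 times, was called in neither line's own course: it stood at -0.58 in Alc::LHY (adjusted p = 0.0986) and 0.91 in wild type (adjusted p = 0.0823) by 8-9 h.

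These within-line counts moved with single arrays. Shares of all genes under the same omissions are not given, so a loss particular to the members is not shown. In Alc::LHY the count by 2 h was 1 without replicate S of 0 h and 2 without replicate I of 0 h or either array of 2 h. By 4 h it was 4 without replicate S of 0 h and 5 without replicate I of 0 h or replicate S of 4 h, and by 8-9 h it was 6 without replicate S of 0 h or replicate I of 8-9 h. In wild type by 8-9 h it was 0 without replicate I of 0 h or replicate S of 8-9 h, 1 without replicate S of 0 h or replicate I of 8-9 h, and 2 without either array of 2 h.

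**Figure D4:**
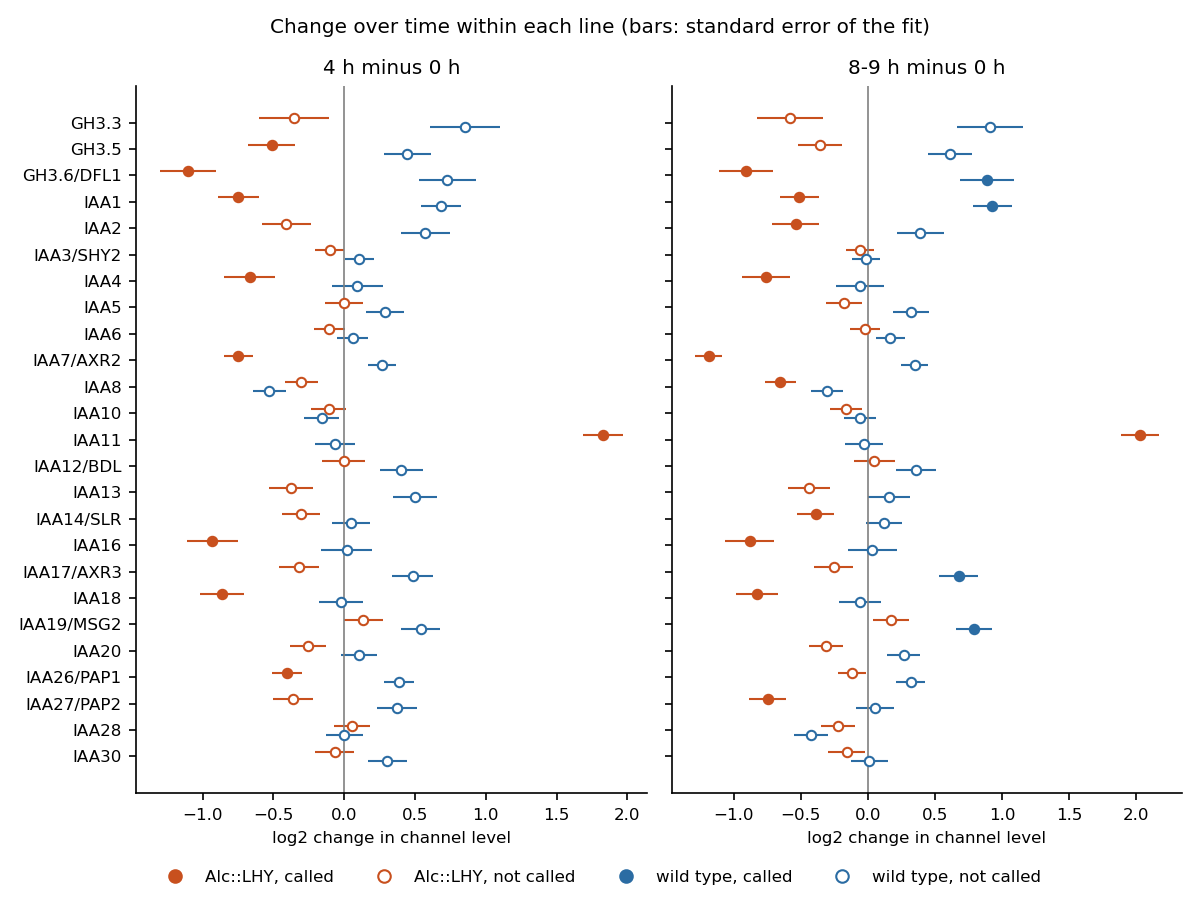
Change of the channel level from 0 h to 4 h and to 8-9 h, in log2 units, for the 25 members in Alc::LHY (orange) and wild type (blue); bars are standard errors of the fit and filled points passed the test. By 8-9 h 11 members are filled in Alc::LHY, all but IAA11 to the left of 0, and 4 in wild type, all to the right.

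The members include 3 pairs of neighbours in the TAIR10.1 gene table, each with 1 annotated gene between them: IAA3/SHY2 and IAA17/AXR3 on chromosome 1, IAA2 and IAA7/AXR2 on chromosome 3, and IAA14/SLR and IAA1 on chromosome 4. Within the pairs on chromosomes 1 and 3 the line differences at 4 h were -0.34 and -0.94, and -0.88 and -0.98, all lower in Alc::LHY. In the pair on chromosome 4 IAA1 stood at -1.20, and IAA14/SLR was lower by the bound given above.

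Further probes of a gene did not always give the same size. That of IAA4, measured on 1 of 2 Alc::LHY arrays, gave -0.40 at 4 h, where the probe used gave -0.71. The other 2 probes of IAA18, also measured on 1 of 2 Alc::LHY arrays, gave -0.84 and -0.49 at 4 h, and both were called. At 2 h they gave -0.39 and -0.22 and were not called (limma over all probes, adjusted p = 0.102 and 0.337). The second probes of IAA2 and IAA7/AXR2 were not well above background in Alc::LHY at 4 h, so no size is given for them there. At 2 h neither was called in limma over all probes (adjusted p = 0.782 for IAA2 and 0.22 for IAA7/AXR2). Nor was either called in that test at 4 h (adjusted p = 0.285 and 0.108), or that of IAA2 at 8-9 h (adjusted p = 0.318). At 8-9 h that of IAA7/AXR2, measured on 1 of 2 Alc::LHY arrays, gave -0.51, where the probe used gave -1.503. Probes matched to IAA14/SLR and IAA26/PAP1 in addition to those used were above background on 0 arrays. Without probe sequences, cross-reaction between related Aux/IAA transcripts could not be assessed.

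Other auxin genes are counted at 4 h beside the 36.7% of all genes called. The share called was 100% of receptors, 78.6% of carriers and 62.5% of SAUR genes, while it was 40% of ARFs, 33.3% of other GH3 genes, 28.6% of synthesis genes and 14.3% of hydrolysis and oxidation genes, near or below that background. In Alc::LHY all 6 TIR1/AFB receptor genes were lower at 4 h and at 8-9 h, with TIR1 at -0.91 ± 0.13 (arrays -1.22 and -0.59, adjusted p = 0.00286) and AFB3 at -0.75 ± 0.11 (arrays -0.81 and -0.70, adjusted p = 0.00302) at 4 h. Of 15 ARF genes 5 were lower, ARF10 (-0.81), ARF11 (-0.67), ARF2 (-0.77), ARF5 (-0.75) and ARF3 (-0.75), and ARF19 was higher (0.72, adjusted p = 0.0148). ARF2, ARF3, ARF5 and ARF19 are named here after their values were seen. Of 16 measured SAUR genes, small auxin-induced growth genes, 10 were lower and 0 higher, with SAUR22 at -1.04 ± 0.10 (adjusted p = 0.00091) and SAUR23 at -0.86 ± 0.09 (adjusted p = 0.00106). In wild type 10 of the 16 rose by 8-9 h, where 2.34% of all genes were called higher. Within Alc::LHY 11 were called lower than at 0 h by 4 h, against 14.4% of all genes. By 8-9 h 4 were higher there and 1 lower, against 17.4% and 16.7% of all genes.

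Auxin carriers showed 10 of 14 lower and 1 higher at 4 h. The exporter gene ABCB19 stood at -1.49 ± 0.11 (arrays -1.58 and -1.39, adjusted p = 0.000372), and the 1 higher was the importer gene LAX1 at 1.63 ± 0.12 (arrays 1.75 and 1.51, adjusted p = 0.000369). Of 7 measured synthesis genes 2 were lower, TAA1 (-1.06 ± 0.12, adjusted p = 0.00121) and YUC2 (-1.01 ± 0.18, adjusted p = 0.00646), which encode the first and the second enzyme of the main route from tryptophan to auxin. Of the 6 other measured GH3 genes, GH3.17, which conjugates auxin to glutamate, was lower (-0.93 ± 0.11, adjusted p = 0.00172), and JAR1, which makes the active conjugate of jasmonate, was higher (1.31 ± 0.27, adjusted p = 0.0104), on arrays far apart at 2.05 and 0.57. Among 7 genes of conjugate hydrolysis and auxin oxidation 1 was called, DAO2 (-0.79 ± 0.12, adjusted p = 0.004). The medians at 4 h were -0.78 for receptors, -0.28 for ARFs, -0.64 for carriers, -0.15 for synthesis genes, -0.24 for other GH3 genes, -0.11 for hydrolysis and oxidation and -0.57 for SAUR genes, against -0.0066 over all genes.

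**Figure D5:**
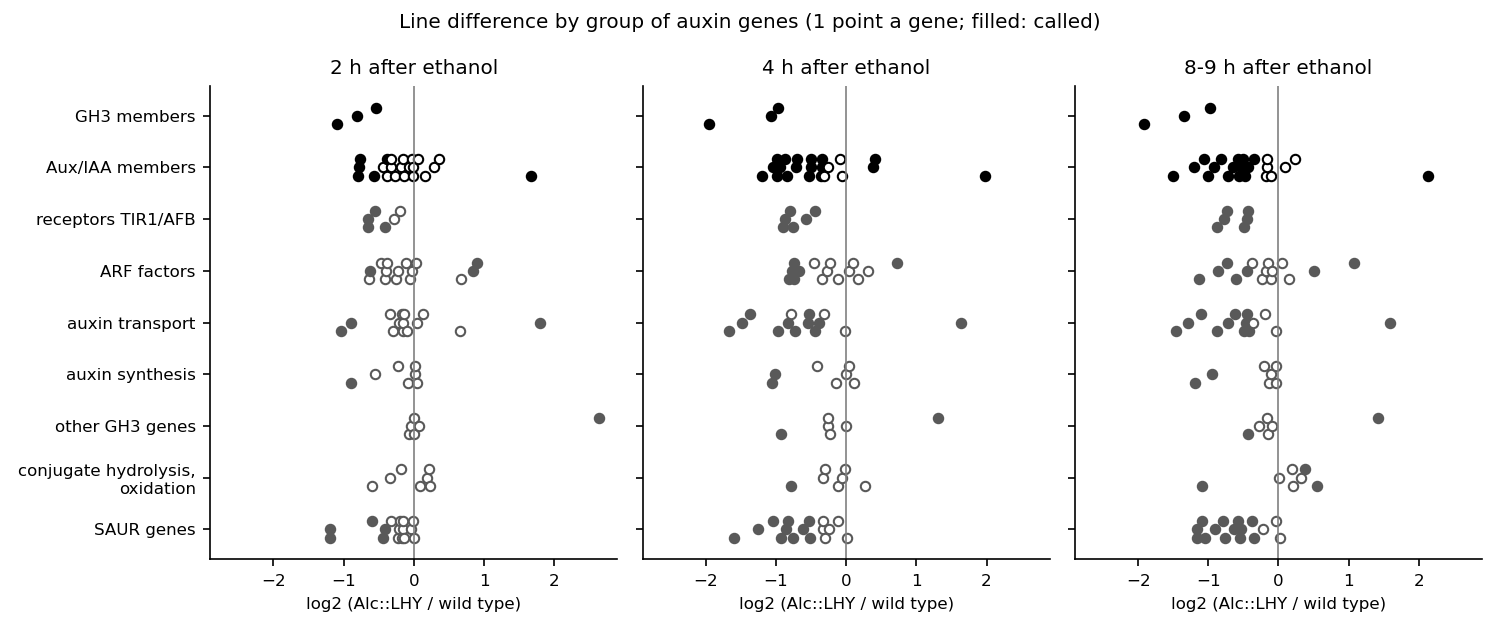
Line difference, log2 of Alc::LHY over wild type, at 2, 4 and 8-9 h for the members (black) and 7 other groups of auxin genes (grey), 1 point a gene, filled where called. At 4 h the 6 receptor genes and 10 of 16 SAUR genes are filled to the left of 0, and LAX1 at 1.63 and JAR1 at 1.31 to the right.

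Markers of shoot and root are counted beside the 14.2%, 36.7% and 36.7% of all genes called at 2, 4 and 8-9 h. Of the shoot markers tested 0%, 50% and 66.7% were called, and of the root markers 83.3%, 83.3% and 66.7%. The sums below add unlogged signal, so bright markers weigh most in them. All 6 shoot green-tissue markers were well above background in at least 1 dye of at least 1 array over all times. Of these, 0 were called at 2 h in limma (1 at an unadjusted p under 0.05). At 4 h 3 were lower in Alc::LHY (LHCB1.1, LHCB1.2 and RBCS1A), and their summed signal on an array was 260400 to 428600 units in Alc::LHY, against 459100 to 554900 in wild type. At 8-9 h 4 were lower, with sums of 235600 to 429100 in Alc::LHY, against 414500 to 538800 in wild type. Of 8 root markers 6 were tested, PIN2 and WOX5 not, and each of the 6 met the same condition on signal. At 2 h 3 were higher and 2 lower, with sums of 78540 to 100100 in Alc::LHY, against 41480 to 44630 in wild type. At 4 h COBL9 was higher and SHR, SCR, PYK10 and PHT1;1 lower, with sums of 46270 to 53030 in Alc::LHY, against 77190 to 83100 in wild type. At 8-9 h 1 was higher and 3 lower, with sums of 47620 to 49350 in Alc::LHY, against 60670 to 73440 in wild type. The sums were alike at 0 h, at 54000 to 64860 for roots and 378100 to 439300 for shoots in Alc::LHY, against 55800 to 60600 and 337300 to 464600 in wild type. The part of these marker differences in the members' values was not tested.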

How the data were processed

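Whole-seedling RNA of Alc::LHY and wild type was compared on 8 Agilent arrays with 2 dyes. Per the file headers, the authors scanned the arrays into Feature Extraction output (version 10.7.3.1), which the submitters' processing notes also name. Their deposited median spot and background signals are intensity values in arbitrary units. The deposited log ratio is log10 of Cy5 over Cy3, and the authors' series matrix holds it turned to Alc::LHY over wild type (largest difference 0.00425). Further processing by the authors was not given in the sources used here.

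Background was corrected with normexp (offset 50), and ratios were loess-normalized within arrays, with 1417 control and 161 flagged spots left out. Probes needed a signal well above background in either dye on at least 2 of 8 arrays and a value on at least 6. A gene was read by its brightest probe. The deposited signals thus became log2 ratios of Alc::LHY over wild type, fitted in limma 3.58.1 (R 4.3.3) with 4 time terms and a dye term. Dye, replicate and slide are 1 split, so the term is also the replicate block. The fit had 3 residual and 3.59 prior degrees of freedom. Deviations of replicate S from I correlated between times at -0.016 to 0.60, and the shared slide and dye give the pairing. Within-line changes came from limma's separate-channel fit after Aquantile normalization (16 channels, 6 residual degrees of freedom, 21410 genes, intraspot correlation 0.336). A gene was called at a Benjamini-Hochberg adjusted p under 0.05 over all genes tested. For a bound, the brighter line's mean was divided by a floor, per array whichever is larger of the probe's own value and the dimmest value flagged as well above background, and dye bias can enter it. Where the probe's own values are the larger, the bound equals the fitted difference. It refers to the mean of the arrays, not to each array. Accessions of the annotation were named through the TAIR10.1 table (26259 of 27803 found).

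The members, the auxin lists, the markers and the tests were chosen with earlier results of these data known. Array values are given for members called in a line difference, at least at the times of their calls. They were also meant for members whose arrays of 1 time disagree in sign by over 1 log2 unit, but there were none. For members whose probes differ by over 0.5 log2 units, array values are of the probe used, except for the dim probe of IAA13. Of each other auxin list at most 2 called genes with the smallest p at 4 h are named, except that 4 further ARF genes are named after their values were seen. The fits were tested on simulated data. Alternatives were no background subtraction, median centring, the scanner's ratio, the authors' matrix, other filters, other uses of probes, no replicate block, quantile normalization of channels, and each array left out in turn.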

Additional observations from a re-analysis of the deposited data

Results flagged for a closer look

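The line difference of 30 member-and-time results departed from its own value at 0 h in a test of that change (limma, adjusted p under 0.05 over all genes), which is a difference of the same contrast between times. All use the same 2 arrays of 0 h. At 2 h the change was -0.81 for IAA1, -0.89 for IAA2 and 1.58 for IAA11, on the log2 scale of Alc::LHY over wild type. At 4 h it was -1.83 for GH3.6/DFL1, -1.21 for GH3.3 and -0.96 for GH3.5. Among Aux/IAA genes at 4 h it was 1.90 for IAA11, -1.43 for IAA1, -1.01 for IAA7/AXR2, -0.98 for IAA2, -0.95 for IAA16, -0.88 for IAA13, -0.84 for IAA18, -0.80 for IAA17/AXR3, -0.79 for IAA26/PAP1 and -0.73 for IAA27/PAP2. At 8-9 h it was -1.80 for GH3.6/DFL1, -1.49 for GH3.3 and -0.97 for GH3.5. Among Aux/IAA genes at 8-9 h it was 2.05 for IAA11, -1.54 for IAA7/AXR2, -1.44 for IAA1, -0.93 for IAA2, -0.93 for IAA17/AXR3, -0.92 for IAA16, -0.80 for IAA27/PAP2, -0.77 for IAA18, -0.62 for IAA19/MSG2, -0.59 for IAA13 and -0.58 for IAA20.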

How the results depend on the processing

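With median centring in place of loess the called members were 0 at 2 h, 5 at 4 h and 2 at 8-9 h, and 0 for each of the 3 changes from 0 h. Of all genes, 0%, 6.73% and 1.33% were then called at 2, 4 and 8-9 h. The change from 0 h to 2 h gave 6 called members without background subtraction and 1 with the scanner's ratio or the authors' matrix, which gave 7 for the change to 8-9 h. Without the replicate block the line difference gave 7, 18 and 17 called members at 2, 4 and 8-9 h, against 10.8%, 30.3% and 31.1% of all genes. The change by 2 h in Alc::LHY then gave 3 and that by 8-9 h in wild type 2. Quantile normalization of the channels gave 1 called member in wild type by 4 h. Leaving out each array in turn gave 2 to 8, 10 to 22 and 9 to 19 called members at 2, 4 and 8-9 h. Of all genes, 2.35% to 14.4%, 15.3% to 36.1% and 9.03% to 36.5% were then called at these times. For the changes from 0 h, leaving out arrays gave 0 to 3, 7 to 12 and 4 to 14 called members. Within Alc::LHY it gave 1 to 5, 4 to 9 and 6 to 10, and in wild type by 8-9 h 0 to 4. Shares of all genes are not given for the changes from 0 h or within a line. The cause of these differences was not tested, beyond the fewer arrays in the last set. Of 49 called line differences after ethanol, those kept under all 17 alternatives were IAA1, IAA11, GH3.5 and GH3.6/DFL1 at 4 h and IAA11 and GH3.6/DFL1 at 8-9 h. Over the single members, 677 comparisons with an alternative kept a call, 155 lost it and 17 gained one, and no called value changed sign. Several alternatives return the same estimate, so the others alone could have changed a sign. Dim signal limits IAA3/SHY2, IAA5, IAA6, IAA14/SLR, IAA20 and IAA30.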
